A study of Mus musculus with 6 samples.

Results

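RUNX1 binding around 6 nuclear receptor genes was described in mouse granulosa cells, the somatic cells that nourish the oocyte in the ovarian follicle. The genes were Nr5a1, Nr5a2 and Nr0b2 of the NR5A axis and Nr4a1, Nr4a2 and Nr4a3 of the NR4A family. A peak was counted for a gene when its summit lay inside the gene or within 50 kb of either end, by RefSeq gene positions on GRCm38. By this rule 90 of the 51515 deposited peaks belonged to the 6 genes, out of 21887 protein-coding genes whose windows were counted in the same way. Chromatin immunoprecipitation with a RUNX1 antibody and sequencing (ChIP-seq) gave 2 libraries before human chorionic gonadotropin (hCG), called 0 h, and 2 libraries 6 h after hCG, with 1 pooled input per time point. All groups came from 21 days old mice of the CBA x C57BL/6 F1 cross, primed with 5 IU of equine chorionic gonadotropin (eCG). The 6 h cells were taken after a further 5 IU of hCG, which was given 46 h after the eCG and stands in for the ovulatory surge. The deposited protocol describes the 6 h collection for every sample, so the 0 h group rests on its titles and time-point labels. The labels do not say how many animals were pooled per library or whether replicates came from separate animals, so the spread between them may be partly technical, and p-values measure that spread only. Read totals per library are not given in the sources used here. Peak lists hold no expression values, so the labelled cell type could not be checked against marker expression.

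NR5A1 (steroidogenic factor 1) and NR5A2 (liver receptor homologue 1) are orphan nuclear receptors that bind DNA as monomers and drive genes of steroid synthesis. NR5A2 in granulosa cells is required for ovulation, and NR0B2 (small heterodimer partner) lacks a DNA-binding domain and represses NR5A receptors. NR4A1, NR4A2 and NR4A3 are immediate early gene products that gonadotropins induce through cAMP, and they bind an element that overlaps the NR5A element. RUNX1 is a DNA-binding factor that is itself induced in granulosa cells by the ovulatory signal.

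The NR4A promoters are printed because they share a sequence feature and because a RUNX1 region called in both 6 h replicates overlapped each of them. Such a region overlapped 26.6% of all promoters of the same length (300 bp), and none of the listed promoters of Nr0b2 and Nr5a2. The lines give the 250 bases before the transcript start, 5′ to 3′ on the gene's strand, from the RefSeq promoter table on GRCm38.p6. Capitals mark TGACG or CGTCA, the core of the cAMP response element on either strand. Nr4a1 lies on the plus strand at chr15:101266596-101266845, Nr4a2 on the minus strand at chr2:57124004-57124253, and Nr4a3 on the plus strand at chr4:48045055-48045304.
Nr4a1: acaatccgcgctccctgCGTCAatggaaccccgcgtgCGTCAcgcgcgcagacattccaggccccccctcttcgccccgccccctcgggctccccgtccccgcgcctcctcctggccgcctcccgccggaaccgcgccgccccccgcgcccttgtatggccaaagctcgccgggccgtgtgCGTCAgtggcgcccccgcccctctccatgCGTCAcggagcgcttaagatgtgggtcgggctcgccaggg
Nr4a2: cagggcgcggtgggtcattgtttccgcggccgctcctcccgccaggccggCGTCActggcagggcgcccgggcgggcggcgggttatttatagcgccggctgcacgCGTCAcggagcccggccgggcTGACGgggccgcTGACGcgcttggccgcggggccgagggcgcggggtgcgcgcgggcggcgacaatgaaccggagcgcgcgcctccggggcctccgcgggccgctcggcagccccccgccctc
Nr4a3: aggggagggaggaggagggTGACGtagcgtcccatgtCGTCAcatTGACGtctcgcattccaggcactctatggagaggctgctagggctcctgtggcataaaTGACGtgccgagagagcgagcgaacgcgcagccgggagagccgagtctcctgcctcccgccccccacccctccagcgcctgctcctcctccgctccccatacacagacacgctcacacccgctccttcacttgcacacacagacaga

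Each of these promoters held 4 copies of the cAMP core in its window of 300 bp (250 bases before and 50 after the start), and the listed promoters of Nr0b2 and Nr5a2 held 0. Of 32851 promoters of that length in the table, 20.8% held at least 1 copy and 76, or 0.231%, held 4 or more, where the palindrome of both forms counts as 2 copies. A number of 4 or more was found in 0.811% of the 8753 promoters overlapped by a 6 h region and in 0.0207% of the others. By the stricter rule that the summit of the region lies inside the promoter, it was found in 1.04% of 4405 promoters and in 0.105% of the others. By that rule Nr4a1 is among the 4405, and Nr4a2 and Nr4a3 are among the others. At least 1 copy was present in 40.5% of the promoters with a 6 h summit inside and in 17.8% of the others. The core contains CG, and the median GC content was 65.0% in the promoters with a summit and 51.0% in the others. The part of base composition in these shares was not tested. The RUNX core TGTGGT or ACCACA was in none of the 6 promoters listed for the members (1 each for Nr0b2, Nr4a1, Nr4a2 and Nr4a3, and 2 for Nr5a2). It was in 16.8% of all promoters, in 13.8% of those with a 6 h summit inside and in 17.2% of the others. The variant TGCGGT or ACCGCA was in none of the 6 either, in 16.7% of the promoters with a 6 h summit and in 4.87% of the others. The receptor element core AAGGTCA or TGACCTT was also in none of the 6, and in 4.72% of all promoters, 2.63% of those with a 6 h summit and 5.04% of the others. In the 222 promoters with a summit of a replicated 0 h region the shares were 17.6% for the RUNX core and 34.2% for its variant. They were 9.46% for the receptor core and 51.8% for the cAMP core. Motifs were sought on both strands in these windows only, and no entry for Nr5a1 was in the table.

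The 0 h lists held few peaks at these genes and the 6 h lists many. The 6 genes together had 3 and 6 peaks in 0 h replicates 1 and 2, and 33 and 48 peaks in 6 h replicates 1 and 2. The mean was 4.5 ± 2.12 before hCG and 40.5 ± 10.6 after it (SD over 2 libraries each), a ratio of 9.0, and the time points did not overlap. On the log2 scale with 1 added, the difference was 2.95. A two-sided exact permutation test gave p = 0.333, the smallest p that 2 libraries against 2 allow. A peak was present at 3 of the 6 members in each 0 h list, where 9.43% and 28.2% of protein-coding genes had one in replicates 1 and 2. It was present at all 6 in each 6 h list, where 69.3% and 76.1% did. The lists differ in length, with 948 and 3135 peaks at 0 h and 18761 and 28671 at 6 h. As a share of its list, the members made up 0.316% (95% CI 0.0653 to 0.922) and 0.191% (0.0703 to 0.416) at 0 h. At 6 h they made up 0.176% (0.121 to 0.247) and 0.167% (0.123 to 0.222), by exact Clopper-Pearson intervals that cover counting error only. The mean share was 0.254 ± 0.0884% at 0 h and 0.172 ± 0.006% at 6 h, a 6 h minus 0 h difference of -0.0823 percentage points (exact permutation p = 0.333, n = 2 each). Without 0 h replicate 1 that difference was -0.0197, and without 0 h replicate 2 it was -0.145. With the 948 peaks of lowest p-value from each list, the members had 3 and 3 peaks at 0 h and 2 and 1 at 6 h. The higher number of member peaks at 6 h was thus present in the full lists and turned round in lists of equal length.

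**Figure D1:**
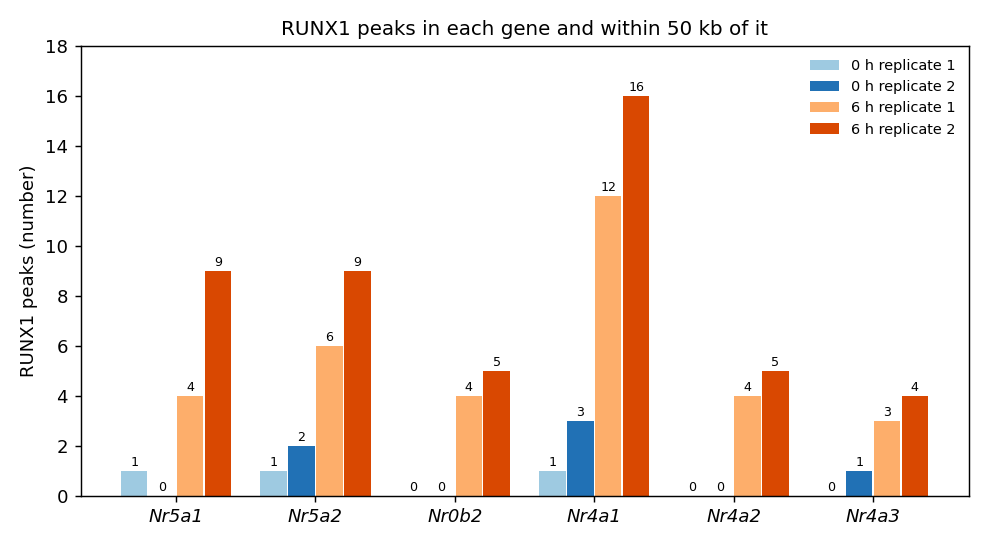
Number of RUNX1 peaks (vertical axis) in each member gene or within 50 kb of it, 1 bar per library with its count above it. Nr4a1 has the most peaks in both 6 h libraries, 12 and 16, and Nr0b2 and Nr4a2 have none at 0 h.

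Regions called in both replicates of a time point, with at least 1 bp shared, are called replicated. At 0 h a replicated region was present at 2 of the 6 members, Nr5a2 and Nr4a1, where 8.76% of all protein-coding genes had one. With 0 h replicate 2 alone the members had 6 regions at 0 h in place of 2, and with replicate 1 alone 3. At 6 h all 6 members had a replicated region, where 68.9% of the genes did. A 6 h region lay inside the gene at 5 of the 6, all but Nr0b2, and at 35.4% of the genes. The 6 h number of 30 regions was spread unevenly, with 10 at Nr4a1, 5 at Nr5a2, 4 each at Nr5a1, Nr0b2 and Nr4a2, and 3 at Nr4a3. Without 6 h replicate 1 the peaks of the other library gave 48 regions, 41 of them without a 0 h peak. With peaks of a −log10 q of at least 20 there were 17 regions, and with lists of equal length there was 1 region, at 1 member. The median over all protein-coding genes was 2. The Nr4a1 window exceeded 98.9% of them, at 8.27 regions per 100 kb against a median of 0.969. The other 5 members each had more regions than at least 65.6% of the genes. Window sizes ran from 103 kb for Nr0b2 to 218 kb for Nr5a2, against a median of 117 kb. Of the 30 regions, 24 overlapped no 0 h peak, or 80.0% (exact 95% CI 61.4 to 92.3), close to the 83.5% of all 17190 replicated 6 h regions. The interval covers counting error only and treats regions of the same gene as independent. At least 1 such region was at each of the 6 members and at 65.0% of all protein-coding genes. In the other direction, all 9 member peaks at 0 h overlapped a 6 h peak, as did 97.5% and 98.0% of all peaks of the 0 h lists.

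**Figure D2:**
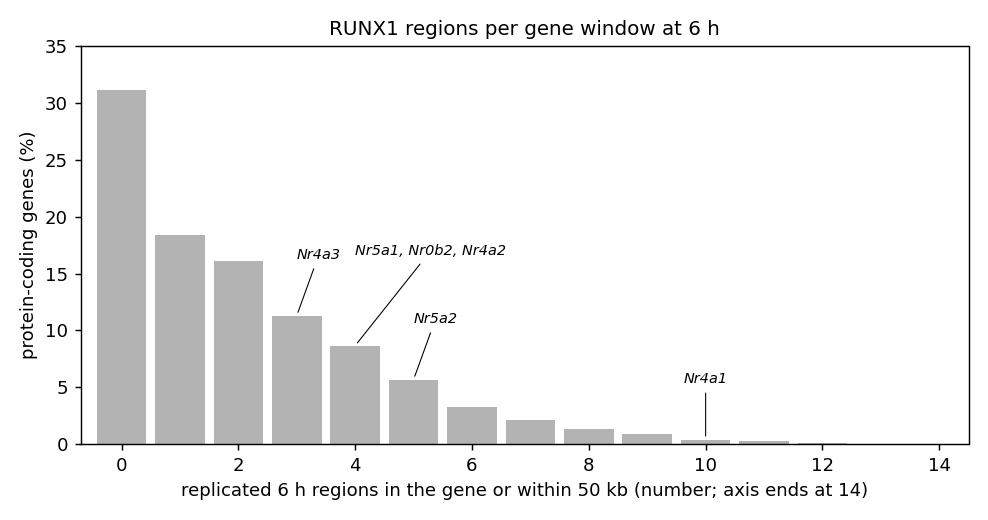
Share of 21887 protein-coding genes (vertical axis, %) by the number of replicated 6 h regions in the gene or within 50 kb (horizontal axis). Nr4a1 stands at 10 regions, a number that 0.397% of genes have, and the other 5 members at 3 to 5.

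Values at single regions are given in 2 ways. The fold is the authors' enrichment over the local background, which is comparable within a list only, and its percentile is the rank in that list. The height is the number of reads piled up at the summit, recovered from the fold and the p-value, divided by the genome-wide background of the library, which was 2.77 and 2.65 reads in the 0 h replicates and 2.76 and 2.13 reads in those of 6 h. It corrects for depth and for nothing else. The lowest summits in the lists had heights of 7.22 and 7.16 before hCG and of 6.88 and 7.97 after it, and where the local background is above the genome-wide one a higher summit may go uncalled. A region without a peak may therefore hold binding.

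Among the NR5A genes, Nr5a2 (gene ID 26424, chr1:136842562-136960448) had the region that was called in every library. At 6 h it spanned chr1:136832798-136833187, outside the gene, 9554 bp beyond its lower coordinate, which for this minus-strand gene is the side of its 3′ end. Its fold was 7.41 and 10.9 in the 0 h replicates and 13.1 and 25.2 in the 6 h replicates, at percentiles 45.6, 87.4, 79.0 and 90.7 of the lists. The 0 h heights were 11.2 and 16.2 and the 6 h heights 27.2 and 55.3, so both 6 h values lay above both 0 h values. The log2 difference of 1.53 had an exact permutation p of 0.333 (n = 2 per group), the smallest possible, and was 1.01 without 6 h replicate 2. It also depended on the background used, with 0.95 over the recovered local background and 1.01 on the deposited fold. In 90.9% of the 791 regions called in all 4 libraries both 6 h heights lay above both 0 h heights, and 35.1% of them had a smaller difference than this one.

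The other 4 Nr5a2 regions overlapped no 0 h peak. The one at chr1:136825368-136826273, 16742 bp beyond the same end, reached folds of 12.2 and 17.5. Inside the gene, the 3 regions at chr1:136915449-136915715, chr1:136948582-136949372 and chr1:136949543-136949814 were weak. Their mean percentiles over the 6 h lists were 37.1, 13.9 and 26.3. The last 2 lay 4855 and 3997 bp from the nearest listed start of Nr5a2. A further site inside the gene, 2320 bp from that start, was called in 0 h replicate 2 with a fold of 8.85 and in 6 h replicate 2 with 9.1, and in neither replicate 1. The peak closest to that start, at 563 bp, was called in 6 h replicate 2 only, with a fold of 5.24. The window limit leaves out a stronger region, 50369 bp above the gene's upper coordinate at chr1:137010389-137011249. Its fold was 34.6 and 63.2 at 6 h, above that of every region inside the Nr5a2 window, and it had no 0 h peak. The nearest annotated gene to it is the pseudogene Rnu7-ps3.

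Nr5a1 (gene ID 26423, chr2:38692656-38714542) had 4 replicated regions at 6 h and 1 peak at 0 h. That peak, inside the gene at chr2:38704407-38704670, was called in 0 h replicate 1 with a fold of 8.1 and a height of 14.8, and not in 0 h replicate 2. The 6 h region over it, chr2:38704399-38704682, showed folds of 6.18 and 6.56 and heights of 12.7 and 14.1. Of the 6 regions with a 0 h peak, it was the only one at which a 0 h height exceeded both 6 h heights. The strongest region, chr2:38678891-38679303, reached folds of 15.4 and 23.4 (percentiles 85.6 and 89.1) and had no 0 h peak. It lay 13524 bp below the gene and inside the transcribed pseudogene Adgrd2-ps. A pair of neighbouring regions lay inside Nr5a1 near its upper coordinate, at chr2:38711497-38712091 and chr2:38712183-38712771. The first had a fold of 8.59 and 15.7 and the second of 7.47 and 10.6, and neither had a 0 h peak. Their summits were 2643 and 1936 bp inside that end of the gene. A peak 104 bp inside the same end was called in 6 h replicate 2 only, with a fold of 5.93.

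Nr0b2 (gene ID 23957, chr4:133553376-133556686, plus strand) had no peak at 0 h and 4 replicated regions at 6 h, and all 4 were nearer to another gene. The strongest, chr4:133583692-133584899, reached folds of 24.5 and 27.0 (percentiles 96.2 and 92.0). It lay 27580 bp from Nr0b2, in the gap between Gpatch3 and Gpn2 and 24 bp from Gpatch3. A region at chr4:133545514-133546264, 7520 bp below Nr0b2, had a fold of 9.28 and 19.7 and lay 171 bp from the start of Nudc. The other 2, at chr4:133574280-133575139 in Gpatch3 and at chr4:133599775-133600015 near Sfn, were weak, with mean percentiles of 3.07 and 5.57. At the Nr0b2 promoter itself the only peak was at chr4:133552951-133553238 in 6 h replicate 2, with a fold of 7.03 at percentile 15.7 and a summit 269 bp before the start.

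**Figure D3:**
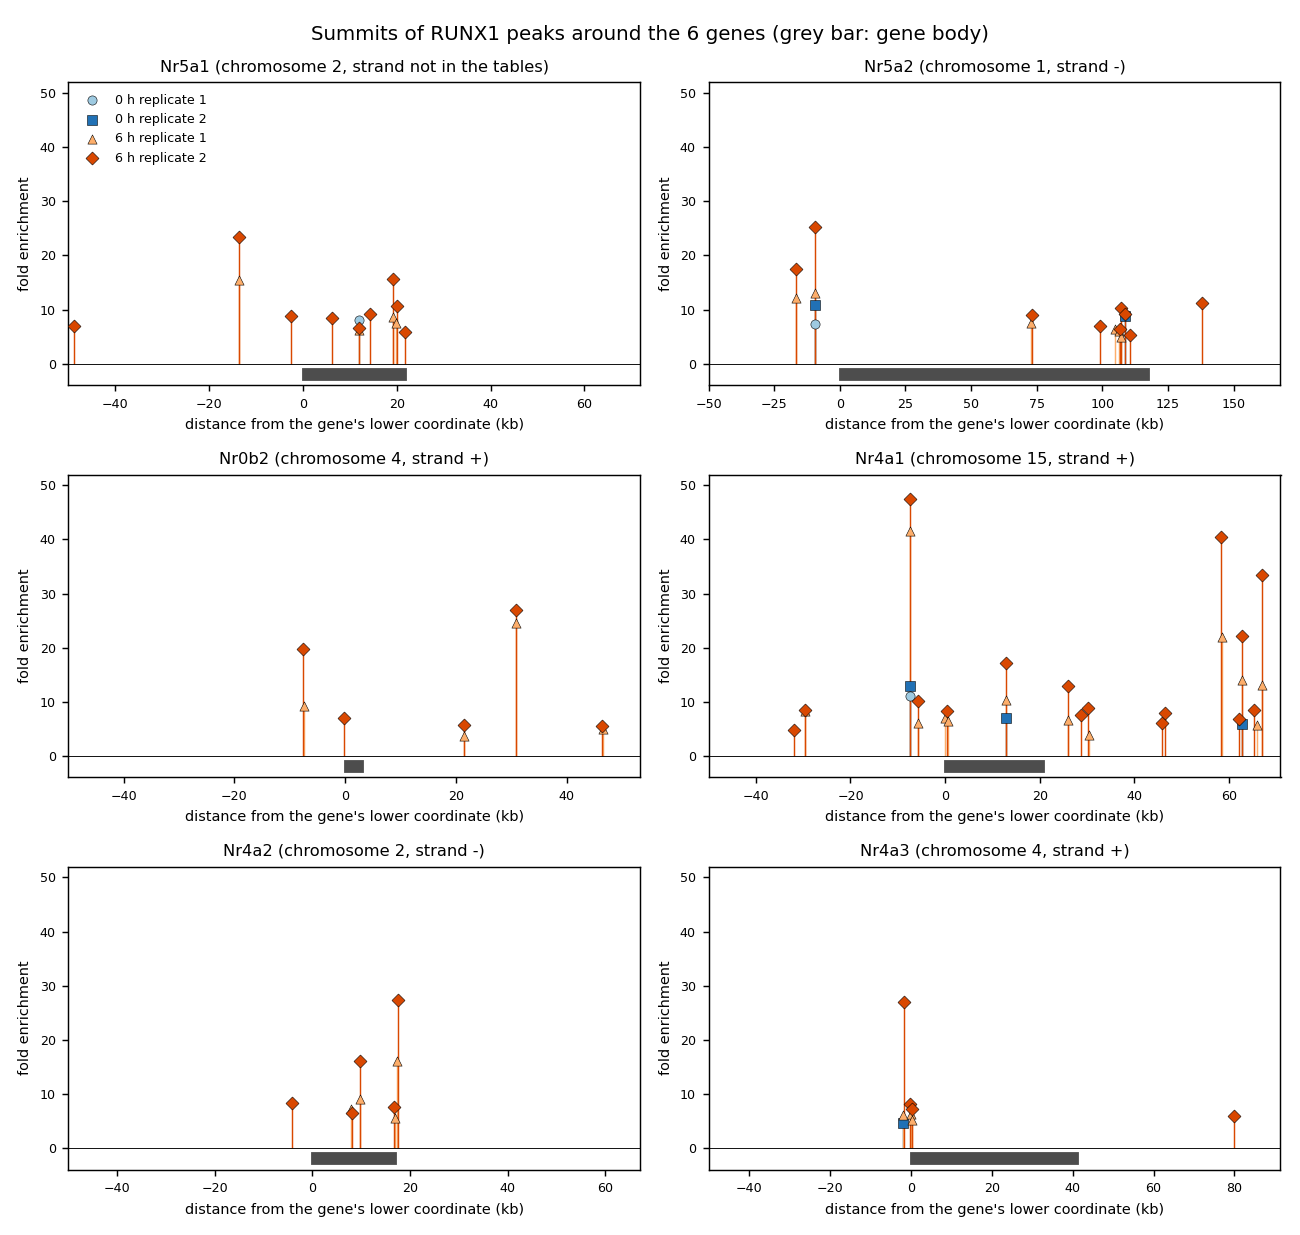
Fold enrichment (vertical axis) of every RUNX1 peak summit by its distance from the lower coordinate of the gene in kb, 1 panel per member, 1 marker per peak and library, with a grey bar for the gene body. The tallest pair is at Nr4a1, about 7.4 kb before its lower coordinate, with folds of 41.6 and 47.5 at 6 h and 11.1 and 12.9 at 0 h.

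Nr4a1 (gene ID 15370, chr15:101253902-101274795) held the strongest region of the members. This region, at chr15:101245960-101247596, lay 7403 bp before the lower coordinate of the plus-strand gene and 20347 bp before its listed promoter start. Its fold was 11.1 and 12.9 in the 0 h replicates and 41.6 and 47.5 in the 6 h replicates, at percentiles 85.3, 93.5, 99.6 and 98.7. The 0 h heights were 17.0 and 20, a mean of 18.5 ± 2.13 (SD, n = 2). The 6 h heights were 89.8 and 119, a mean of 104 ± 20.4. The 0 h and 6 h heights did not overlap, as at 90.9% of the regions called in all 4 libraries, and the log2 difference was 2.49 (exact permutation p = 0.333, n = 2 per group, the smallest possible). Of the 791 regions called in all 4 libraries, 87.0% had a smaller difference in height. On other scales the log2 difference at Nr4a1 was lower, with 1.81 over the recovered local background and 1.89 on the deposited fold. The interval was 330 bp wide at 0 h and 1637 bp wide at 6 h.

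The Nr4a1 promoter printed above was bound within the window shown. The 6 h region chr15:101266141-101267229 reached folds of 10.4 and 17.2, with summits 67 and 77 bp before the start. In 0 h replicate 2 a peak with a fold of 7.05 had its summit 2 bp before the start, and 0 h replicate 1 had no peak there. Heights were 11.7 in that 0 h library and 24.6 and 42.7 at 6 h.

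The remaining Nr4a1 regions lay on both sides of the gene, and 6 of the 10 regions in the window were nearer to another gene. A group above the gene surrounded the lncRNA gene Gm52200. It comprised a region at chr15:101311968-101312672 with a fold of 22.0 and 40.5 at 6 h, a region at chr15:101316388-101317639 with 14.1 and 22.1, and a region at chr15:101319660-101321362 with 13.0 and 33.4. Of these, the region at 101316388 overlapped a peak of 0 h replicate 2 with a fold of 5.82, and the others had no 0 h peak. They lay 37509, 41957 and 46070 bp above Nr4a1, so their place in the window rests on its width. A region at chr15:101279588-101280028, 5062 bp above Nr4a1 and 4444 bp from Atg101, had a fold of 6.6 and 12.9. The other 4 regions had mean percentiles from 17.4 to 38.7. They included a region at the start of Grasp, a region beside Atg101, a region 5732 bp before Nr4a1 and a region 468 bp inside it, and none had a 0 h peak.

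Nr4a2 (gene ID 18227, chr2:57106830-57124003) had no 0 h peak and 4 replicated regions at 6 h, all within 10 kb of its start. The strongest, at chr2:57124102-57124537, overlapped the printed promoter and had its summits 268 and 279 bp before the start, just upstream of the printed bases. Its fold was 16.0 and 27.4 and its height 21.4 and 39.8, at percentiles 86.9 and 92.4. The annotated gene LOC105244150 overlaps this position. Inside Nr4a2, a region at chr2:57116361-57117128 had a fold of 9.04 and 16.0, and a region at chr2:57114333-57115294 had 7.3 and 6.38. The fourth, at chr2:57123440-57123875, lay 398 bp inside the gene with a fold of 5.58 and 7.66.

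Nr4a3 (gene ID 18124, chr4:48045078-48086447, plus strand) had 3 replicated regions at 6 h and 1 peak at 0 h, in replicate 2. The first region, at chr4:48042688-48043851, had its summit 1860 bp before the listed start. Its fold differed between the 6 h replicates, with 6.13 at percentile 18.4 in replicate 1 and 26.9 at percentile 92.0 in replicate 2. The recovered local background was 12.1 reads in replicate 1 and 3.35 in replicate 2, at summits of different position within the region. The heights, which do not use the local background, were 28.6 and 54.4. The 0 h peak under it, with a fold of 4.66 at percentile 4.55, had a height of 8.67. The regions at chr4:48044696-48045202 and chr4:48045293-48045592 overlapped the printed promoter at its 2 ends, with summits at 226 bp before and 134 bp after the start in 6 h replicate 1 and at 472 bp before and 124 bp after it in replicate 2. Of these, only the one at 226 bp lay within the printed bases. They had a fold of 6.36 and 8.04 and of 5.13 and 7.29, and no 0 h peak.

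**Figure D4:**
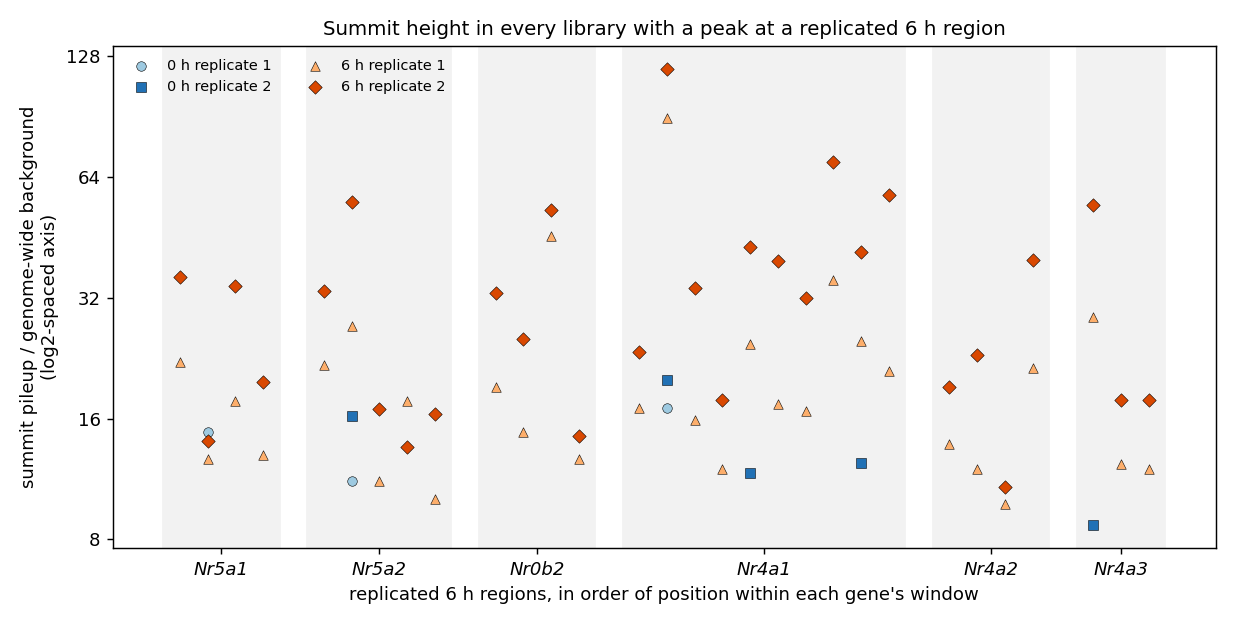
Height of the summit over the genome-wide background (vertical axis, spaced in log2 steps) at the 30 replicated 6 h regions, ordered by position within each gene's window, with a marker for each library that has a peak there. Both libraries of 0 h are present at 2 regions only, at Nr5a2 and Nr4a1, and replicate 2 lies above replicate 1 at 29 of the 30 regions at 6 h.

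The 30 regions covered nearly the whole range of ranks. Their mean percentile of fold over the 6 h lists ran from 3.07 to 99.1 with a median of 43.3, against a median of 59.1 for all replicated 6 h regions. Their width ran from 241 to 1703 bp with a median of 686 bp, against 611 bp for all. Their summits lay within 1 kb of a listed start in 33.3% (exact 95% CI 17.3 to 52.8, for counting error only), against 43.6% of all regions. The height was greater in 6 h replicate 2 than in replicate 1 at 29 of the 30 regions and at 96.9% of all replicated 6 h regions. Only the Nr5a2 region at 136948582 went the other way, with 17.7 in replicate 1 and 13.6 in replicate 2. Of the 30 regions, 18 had the member as their nearest gene, namely 5 at Nr5a2, 4 at Nr4a1, 3 each at Nr5a1, Nr4a2 and Nr4a3, and 0 at Nr0b2.

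The genes most like Nr4a1, the member with the most peaks, were sought among protein-coding genes by the highest fold percentile within the same window in each of the 4 libraries. Nr4a1 had 85.3, 93.5, 99.6 and 98.7 in 0 h replicates 1 and 2 and 6 h replicates 1 and 2. The nearest genes by Euclidean distance were Smoc2, Ttc28, Pcca, Ttc27 and Cyb5b, at distances of 0.0151 to 0.0348 on a scale where 1 is the whole range of a list. Smoc2, at the shortest distance, had 86.6, 94.1, 99.1 and 99.1.

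Coregulators and upstream factors of these receptors were counted in the same windows. Like the lists below, they were chosen with earlier results of these data known, and window sizes were not matched. Of 17, 3 had a replicated region at 0 h and 16 at 6 h, or 17.6% and 94.1%, where 8.76% and 68.9% of all genes did. The 3 were Nrip1, a corepressor of nuclear receptors that is required for ovulation, Ncoa3, a coactivator, and Creb1, which encodes the cAMP response element binding protein. The better ranked Nrip1 region, inside the gene at chr16:76321625-76321912, had a fold of 12.7 and 14.2 at 0 h. The 6 h region over it had 18.4 and 35.8, and its mean percentile in the lists was 93.6 at 0 h and 93.7 at 6 h. The Creb1 region on chromosome 1 lay 119 bp outside the gene at 0 h with a fold of 7.69 and 14.5, and its 6 h counterpart had 17.5 and 27.7, with mean percentiles of 72.9 and 91.1. Nrip1 and Ncoa3 each had 2 replicated regions at 0 h. The better ranked one at Ncoa3 lay 43099 bp from the gene, with a fold of 9.72 and 7.01. Nr0b1, which encodes the repressor DAX1, had no peak in any library.

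Genes listed as granulosa and luteal targets of the NR5A receptors were chosen with earlier results of these data known, and window sizes were not matched. They had a replicated region at 0 h in 6 of 18 cases and at 6 h in 16. These shares of 33.3% and 88.9% stand beside 8.76% and 68.9% of all protein-coding genes, and the difference was not tested. The 6 were Lhcgr (the luteinising hormone receptor), Inha (the inhibin alpha subunit), Amh (anti-Müllerian hormone), Scarb1 (the receptor for high-density lipoprotein), Cyp11a1 (the cholesterol side-chain cleavage enzyme) and Oxtr (the oxytocin receptor). The Lhcgr region inside the gene on chromosome 17 had a fold of 8.43 and 9.42 at 0 h and of 36.5 and 46.6 at 6 h, with mean percentiles of 69.7 and 98.8. The Inha region, 6635 bp from the gene, had folds of 12.5 and 10.8 before hCG and 15.7 and 25.8 after it, with mean percentiles of 88.7 and 88.8. The Oxtr region, inside the gene, had folds of 8.8 and 16.0 before hCG and 9.58 and 12.3 after it, and its mean percentile was 81.2 at 0 h and 59.7 at 6 h. The Amh region lay outside the gene, by 6597 bp at 0 h and 6673 bp at 6 h. Its folds were 5.6 and 9.86 before hCG and 25.2 and 30.9 after it, with mean percentiles of 49.2 and 95.4. At Cyp11a1 and Scarb1 the region of highest rank was a different one at the 2 times. The strongest 0 h region of Cyp11a1 lay 10054 bp from the gene, with a fold of 8.1 and 10.1. That of Scarb1 lay 48818 bp from the gene, near the window limit, with 9.25 and 9.33. At 6 h the 5 genes of the comparison lists with the highest mean percentile were all of this list. The value is that of the best ranked region in a window, so it can rise with the number of regions. The member Nr4a1, which is outside these lists, had a region at 99.1. Tnfaip6, a cumulus matrix gene, stood at 99.6 and Lhcgr at 98.8. Cyp19a1 (aromatase) followed at 98.3, Prlr (the prolactin receptor) at 97.9 and Scarb1 at 96.9. Nr1d1, of the other orphan receptors, came close behind at 96.7. The Tnfaip6, Cyp19a1 and Prlr regions lay 48303, 39349 and 32572 bp from the genes.

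Of 17 other orphan nuclear receptors, 1 had a replicated region at 0 h and 14 at 6 h, or 5.88% and 82.4%, again beside 8.76% and 68.9% of all genes. The 1 at 0 h was Nr1d1, which encodes the clock repressor REV-ERB alpha, with a fold of 5.2 and 7.76 at 8160 bp from the gene. The median number of 6 h regions was 4.0 for the coregulators, 4.5 for the targets and 3.0 for the other orphan receptors, against 2 for all protein-coding genes. The window of Nr6a1 overlaps that of Nr5a1, so these genes share regions.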

How the data were processed

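RUNX1 ChIP was measured in 4 libraries with 2 pooled inputs, as single-end reads of 75 nt. Reads were processed with Bowtie2 2.2.5, MACS2 and build mm10, per the submitters' processing notes; the MACS2 version and settings are not given in the sources used here. Per the series design and the file names, the authors called peaks for each library against the input of its time point. The deposited lists give each peak's fold (a ratio to the local background at the summit), −log10 p and −log10 q, and a score that is a rescaled, truncated copy of the −log10 p and went unused. Inputs entered only through the calls.

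Summit pileup and local background were recovered as the whole number that solves the deposited fold and −log10 p as a Poisson pair. The misfit was at most 0.005 for 100% of peaks in each list, and the commonest background was taken as the genome-wide one. Positions count from 1, and gene positions are RefSeq GRCm38.p6, the assembly that mm10 names. Its gene table gives no strand, so strand and starts came from the RefSeq promoter table, which matched 5 of the 6 members. No genome sequence was used, so motifs were counted in promoters and not at summits as first planned. Replicated regions took the summit of the library with the lower p-value and are ranked by fold within each list.

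Tests were exact two-sided permutation tests over libraries, and their code was tested on simulated data. Analysis used Python 3.11.15 with pandas 2.3.3 and scipy 1.17.1. All 6 members are named with all their regions up to 6 and beyond that the 6 with the highest rank; of the other lists, genes with a replicated 0 h region and the 5 with the highest 6 h rank are named. Nr0b1, Rnu7-ps3 and the unreplicated peaks are named in addition, after their values were seen. Members and lists were chosen with earlier results of these data known. The cAMP core, the share of promoters overlapped by a region, the TGCGGT variant and the crossed replicate numbers were added after the data were seen. The alternatives were other windows, a −log10 q of at least 20, lists of equal length, nearest-gene assignment, other overlap rules, other scales of the height, a pseudocount of 0.5 and leaving out each library.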

Additional observations from a re-analysis of the deposited data

How the results depend on the processing

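Requiring a −log10 q of at least 20 left 1 member with a replicated 0 h region (1 region, at Nr4a1), 17 replicated 6 h regions and 15 of them without a 0 h peak. With 948 peaks per library the log2 difference in member peaks reversed to -0.71. At 6 h, 1 member then had a replicated region, with 1 region, and 0 regions lacked a 0 h peak. Counting only regions nearest to the member left 18 at 6 h, 13 of them without a 0 h peak. The fewer peaks, or the fewer genes they may be assigned to, are part of how these settings are made. Leaving out each library in turn gave log2 differences in member peaks from 2.54 to 3.35. The difference in share was -0.145 when 0 h replicate 2 was left out and -0.0197 when 0 h replicate 1 was, -0.22 at a −log10 q of at least 20, -0.158 with 948 peaks per library, -0.139 by nearest gene and -0.123 in windows of 10 or 100 kb. Without 0 h replicate 1 the peaks of the other library gave 6 regions at 0 h, and without 0 h replicate 2 there were 3. Without 6 h replicate 1 there were 48 at 6 h, and without replicate 2 there were 33, of which 41 and 27 had no 0 h peak; that count was 25 and 27 without 0 h replicates 1 and 2. The height difference ran from 2.29 to 2.69 at Nr4a1 and, at Nr5a2, from 1.01 (6 h replicate 2 left out) to 2.04 (6 h replicate 1 left out). On the scale of the deposited fold it was 1.89 at Nr4a1 and 1.01 at Nr5a2, and over the local background 1.81 and 0.95. In all, 72 of 85 alternative values kept their direction or, for counts, stayed within 1.5 times the reported one. These include the values of the replicate block and of crossed replicate numbers, which could not differ from the reported ones. The replicate block gives the same differences as the unpaired comparison by construction, 2.95 in member peaks and -0.0823 in share. Its sign-flip permutation p was 0.5, the smallest possible with 2 pairs. Same-numbered libraries had a correlation of deviations of -0.188 over 791 regions, a value that depends on the numbering. Crossing the numbers cannot change the differences in member peaks and share, and their sign-flip permutation p stayed at 0.5. With 2 libraries per time point the exact permutation test cannot reach 0.05, and binding too low for a call over its local background is not seen in these lists.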
